A study of Mus musculus with 16 samples.

Results

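The genes described here encode the proteins of the cytosolic ribosome. They were chosen by symbol: Rpl or Rps followed by a digit, or Rplp0, Rplp1, Rplp2 or Rpsa, leaving out symbols with -ps and the Rps6k kinases. The rule took 87 of the 27998 genes in the files, of which 53 belong by name to the large subunit and 34 to the small subunit. It also took Rps19bp1, which encodes a protein that binds Rps19 and is not part of the ribosome, and it left out Fau, whose product releases a ribosomal protein fused to a ubiquitin-like protein. GENCODE M21 places the 87 genes on 19 chromosomes and lists 86 of them as protein coding, the exception being Rpl6l, a processed pseudogene. Rpl10l, a copy used in the testis, had no UMI (unique molecular identifier, the tag that counts 1 captured RNA molecule).

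The cells were lineage-depleted (Lin-) bone marrow of C57BL/6 mice aged 6 to 12 weeks by the labels, profiled with the 10x Genomics 3′ assay. Mice of 2 genotypes, WT (Tet2 fl/fl without Vav-Cre) and Tet2-KO (Vav-Cre Tet2 fl/fl), received vehicle or IL1β at 500 ng per mouse per day for 5 weeks. Every group therefore carried the floxed alleles, and Vav-Cre, which acts in blood-forming cells from fetal life onwards, was present in the Tet2-KO mice only, so that the transgene and the loss of Tet2 cannot be told apart. Each of the 4 groups held 4 mice, run as 2 pools of 2 hashtagged mice, with 1 library per pool and 8 libraries in all. No pool held mice of more than 1 group, so that a difference between libraries and a difference between groups cannot be separated within a library. Of 121405 barcodes, 94917 passed the filters and 57896 could be given to 1 mouse, at 4388604 to 44152768 UMIs per mouse. Libraries shared 0.128% to 0.512% of the barcodes of the smaller library. Tet2 itself was read from the 3′ end of its transcript, at 31.0 to 46.9 CPM (UMI counts scaled to a common library total) in WT mice and 36.4 to 46.2 CPM in Tet2-KO mice with vehicle, and at 53.4 to 61.7 CPM and 59.1 to 77.9 CPM with IL1β, so that this readout did not check the deletion.

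Ribosomal protein genes are transcribed in every cell, and their mRNAs make up a large part of the mRNA of growing cells. Most of these mRNAs begin with a terminal oligopyrimidine (TOP) tract, a C followed by a run of C and T bases, through which mTOR signalling and LARP1 control their translation and stability together. In the marrow, loss of 1 copy of several of these genes causes Diamond-Blackfan anaemia, in which red cell production fails, and free Rpl5 and Rpl11 with the 5S rRNA stabilise p53.

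The annotated transcription starts show this shared element and its limits. RefSeq promoters (GRCm38.p6) were found for 66 members, and 14 of them (21.2%) carried at the annotated start a C followed by at least 4 bases that were each C or T, read on the gene's own strand, against 3.01% of 27025 genes with a promoter in the table. Within 5 bases of the start on either side the shares were 30 of 66 (45.5%) and 21.2%. The windows below run from 10 bases before the start to 20 bases from it, so that the start is the 11th base, and capitals mark the tract found. The first pair are genes with a tract and large falls after IL1β. The next pair show the reverse. Rpl11 had no tract within 5 bases of the start and fell in all 6 IL1β comparisons by gene. Rpl38 had a tract and no change that passed. The pair after that are the 2 genes that rose with mice as replicates, and the last 3 are Rps27 and its sister genes.
Rpl15 (chr14:18270967-18270996, minus strand): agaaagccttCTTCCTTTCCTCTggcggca
Rps18 (chr17:33955646-33955675, minus strand): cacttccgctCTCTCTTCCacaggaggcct
Rpl11 (chr4:136053374-136053403, minus strand): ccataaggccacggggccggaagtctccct
Rpl38 (chr11:114668570-114668599, plus strand): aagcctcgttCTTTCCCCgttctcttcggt
Rpl37a (chr1:72711250-72711279, plus strand): ctcgccggtctaaaaccgcgcatgcgcatt
Rpl41 (chr10:128549149-128549178, minus strand): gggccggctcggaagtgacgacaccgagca
Rps27 (chr3:90213629-90213658, minus strand): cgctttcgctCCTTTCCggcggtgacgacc
Rps27rt (chr9:114982720-114982749, minus strand): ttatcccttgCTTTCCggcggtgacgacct
Rps27l (chr9:66946076-66946105, plus strand): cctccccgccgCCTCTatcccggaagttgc
Rpl11, Rpl37a and Rpl41 had no tract within 5 bases of the annotated start, which says nothing of bases further away. The Rpl11 window ends in a C followed by a run of C and T bases, outside that distance. Rps27 and Rps27rt shared the bases after the tract. Rps27rt is a near copy of Rps27, so that reads of the pair may have been split or dropped, and their separate levels are uncertain.

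Cell types were assigned from marker genes, and 43712 cells (75.5% of those given to a mouse) passed 1 gate. The 3 gates used for tests by gene each rested on a longer list of markers, of which some are named here. They were HSC-like cells (haematopoietic stem cells, with Mecom, Hlf and Procr, 1752 cells, 13 to 205 per mouse), granulocyte progenitor-like cells (with Elane, Ms4a3 and Prtn3, 14603 cells) and CFU-E-like cells (erythroid colony-forming progenitors, with Car1 and Ermap, 3429 cells). Among the 10 leading genes of each gate were 4, 2 and 2 of its own markers, for which the gate itself selects. The CFU-E-like gate held 9476 cells before hashtags were read, so that most of its cells had no mouse.

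Ribosomal protein genes took between 15.9% and 31.5% of all UMIs in the average mouse, depending on the cell type. Their share of all UMIs was highest in granulocyte progenitor-like cells (31.5% ± 1.71, SD, n = 16 mice) and monocyte-primed progenitor-like cells (31.0% ± 1.91, n = 16), followed by CFU-E-like cells (30.4% ± 2.26, n = 16) and immature myeloid progenitor-like cells (29.9% ± 2.56, n = 14). Erythroblast-like (29.8% ± 2.60, n = 15), natural killer or T cell-like (29.2% ± 3.86, n = 13), monocyte-like (28.7% ± 1.44, n = 16) and HSC-like cells (28.1% ± 3.07, n = 16) came next. Lower shares stood in basophil-like (24.9% ± 1.68, n = 16), megakaryocyte progenitor-like (24.4% ± 2.65, n = 16), class II dendritic cell-like (23.2% ± 1.72, n = 15) and plasma-cell-like cells (22.4% ± 2.16, n = 15). Neutrophil-like cells, which store granule proteins, had the lowest share of the 13 gates (15.9% ± 2.73, n = 15). The median neutrophil-like cell was lower still, at 8.86% over the cells given to a mouse. Hashtags marked 8.51% of the gate's cells as doublets against 4.15% of all cells, and although these were left out of the sums, the part of doublets within 1 mouse, which hashtags cannot mark, was not tested. These means mix treatments in unequal numbers of mice. Over vehicle mice alone the order was granulocyte progenitor-like (32.8%), monocyte-primed progenitor-like (32.6%), CFU-E-like (32.4%), natural killer or T cell-like (32.2%), immature myeloid progenitor-like (32.1%), erythroblast-like (31.9%), HSC-like (30.7%) and monocyte-like cells (29.5%).

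Within mice, the order was clear at 2 places. Basophil-like cells were below HSC-like cells in 16 of 16 mice, with a mean difference of -3.17 ± 1.67 percentage points (SD over mice). Neutrophil-like cells were below plasma-cell-like cells in 14 of 14 mice, with a difference of -5.97 ± 3.67 points. From CFU-E-like to HSC-like cells each gate differed from the one above it by -0.647 to -0.357 points, within the SD of that difference for every one of these neighbours, so that their order over all mice is not resolved. Granulocyte progenitor-like cells were above monocyte-primed progenitor-like cells in 14 of 16 mice, although the latter differed by only -0.438 ± 0.372 points. The share is relative, so that a lower share cannot be told apart from more RNA of other genes.

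**Figure D1:**
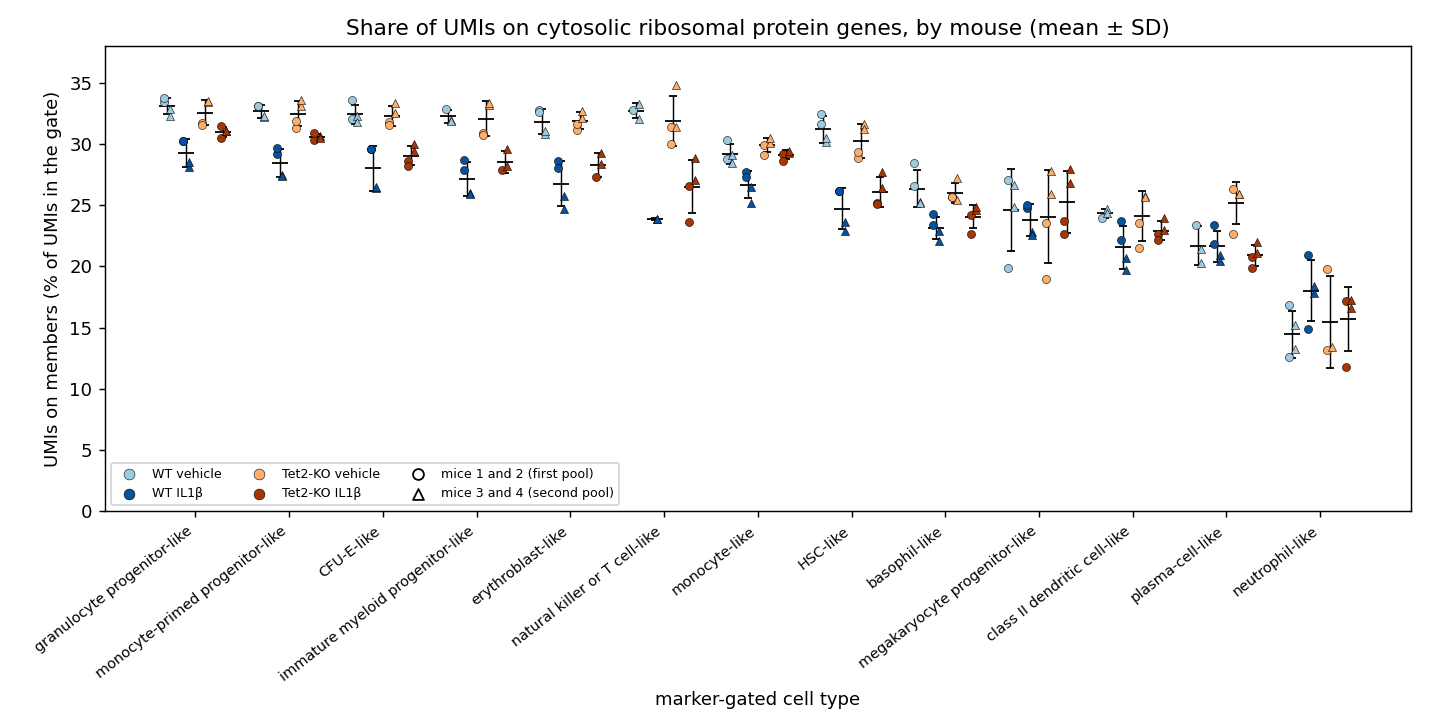
Percentage of a gate's UMIs that fell on ribosomal protein genes (vertical axis, from 0), for each mouse, in 13 marker-gated cell types ordered by their mean. Colours give the 4 groups, circles and triangles the 2 pools of a group, and black bars the mean ± SD over mice. HSC-like cells of IL1β-treated mice sit between 22.9% and 27.7%, below all vehicle mice, and neutrophil-like cells are lowest at 15.9% on average.

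After IL1β, ribosomal protein genes took a smaller share of UMIs in most cell types. In HSC-like cells the share was 31.7%, 32.5%, 30.2% and 30.5% in the 4 WT vehicle mice and 26.2%, 26.1%, 23.6% and 22.9% in the 4 WT IL1β mice. The groups did not overlap, and the mean difference was -6.47 percentage points (24.7% against 31.2%). In Tet2-KO mice it was 28.8%, 29.3%, 31.6% and 31.2% with vehicle and 25.2%, 25.1%, 26.4% and 27.7% with IL1β, again without overlap, a difference of -4.16 points (26.1% against 30.3%). In these groups the 2 mice of a pool lay closer to each other than to the mice of the other pool, except for Tet2-KO mice 3 and 4 with IL1β, which differed by about as much as the pools did.

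Across the 13 gates the mean share was lower with IL1β in 12 in WT mice, 10 of them without overlap, and in 11 in Tet2-KO mice, 9 of them without overlap. The gates share mice and libraries, so that they do not count as separate observations. Granulocyte progenitor-like cells went from 33.1% to 29.3% in WT and from 32.6% to 31.0% in Tet2-KO mice, and CFU-E-like cells from 32.4% to 28.0% and from 32.3% to 29.1%. Natural killer or T cell-like cells had the widest gap, 23.9% (2 mice of 1 pool) against 32.7% (3 mice) in WT and 26.5% against 31.9% (4 and 4 mice) in Tet2-KO mice. The exception in WT mice was the neutrophil-like gate, where the share was 18.02% with IL1β and 14.5% with vehicle, with overlapping mice. In the same cells the granule and haemoglobin genes S100a8, S100a9, Camp, Ngp, Ltf, Elane, Mpo, Hba and Hbb took 14.9% to 30.4% of UMIs with IL1β and 30.8% to 36.7% with vehicle. Megakaryocyte progenitor-like cells showed 23.8% against 24.6% in WT and 25.3% against 24.1% in Tet2-KO mice, with overlap in both. The other gate with a higher mean share with IL1β in Tet2-KO mice was the neutrophil-like gate, with overlapping mice.

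Other measures moved with IL1β in the same libraries. Mitochondrial transcripts took 4.79% to 5.59% of the UMIs of HSC-like cells in WT IL1β mice against 4.04% to 5.26% in WT vehicle mice, and 4.86% to 5.10% against 3.85% to 4.64% in Tet2-KO mice. In granulocyte progenitor-like cells the ranges were 4.77% to 5.94% in the 8 IL1β mice and 3.33% to 4.59% in the 8 vehicle mice. With mitochondrial genes left out of the total, the difference in HSC-like cells was -6.61 points in WT and -4.12 points in Tet2-KO mice, about as large as before. The granule and haemoglobin genes named above, of which Elane and Mpo are also used by early myeloid progenitors, averaged 0.180% of the UMIs of HSC-like cells with IL1β and 0.0822% with vehicle in WT mice, and 0.145% and 0.0884% in Tet2-KO mice, and their part in the result was not tested. The median UMI count per HSC-like cell overlapped between IL1β and vehicle mice in both genotypes.

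Gene by gene, with mice as replicates, most ribosomal protein genes were lower after IL1β in all 3 tested cell types. In HSC-like cells of WT mice 61 of 83 tested members fell and 0 rose (edgeR quasi-likelihood test, Benjamini-Hochberg adjusted p under 0.05 over all genes tested), with a median log2 fold change of -0.54 against 0.01 over all genes. Of all 6566 genes tested, 6.67% passed. In Tet2-KO mice 49 of 83 fell and 0 rose, with a median of -0.37, where 10.2% of all genes passed. The members not tested for low counts in these cells were Rpl6l, Rpl3l and Rpl39l, beside the undetected Rpl10l. In granulocyte progenitor-like cells 67 of 84 members fell and 2 rose in WT mice (median -0.45, 29.4% of all genes passed), and 52 fell and 2 rose in Tet2-KO mice (median -0.29, 40.0% passed). In CFU-E-like cells 63 of 84 fell and 1 rose in WT mice (median -0.42, 15.1% passed), and 55 fell and 0 rose in Tet2-KO mice (median -0.34, 15.5% passed). Bulk sums per mouse and gate cannot tell fewer ribosomal protein mRNAs per cell from more of other mRNAs.

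These counts leaned on the pools. With each pool summed into 1 sample, cells given to no mouse included, members called were 34 and 10 of 84 in HSC-like cells (WT and Tet2-KO), where 2.93% and 5.26% of all genes passed. They were 28 and 12 of 86 in granulocyte progenitor-like cells (7.52% and 18.5% of all genes), and 48 and 1 of 85 in CFU-E-like cells (11.4% and 1.75% of all genes). In Tet2-KO granulocyte progenitor-like and CFU-E-like cells the share of members that passed in these fits was below that of all genes, so that the counts there are not a result about the members. Without the pool of Tet2-KO vehicle mice 3 and 4, 0 of 83 members passed in HSC-like cells of Tet2-KO mice, although the median change stayed at -0.26. The share of all genes that passed in that fit is not given here, so that the 0 is not a result about the members alone. With a stricter HSC-like gate 36 of 82 members passed in WT mice, where 3.1% of all genes passed. When total UMIs set the scale, at which the median of all genes stood at 0.10 to 0.22 in the 6 comparisons, 50 members fell and 2 rose in WT and 36 fell and 1 rose in Tet2-KO HSC-like cells (7.61% and 10.3% of all genes passed). On that scale 51 fell and 7 rose in WT and 34 fell and 10 rose in Tet2-KO granulocyte progenitor-like cells, where 39.5% and 45.2% of all genes passed. The 44 members called in the latter, 52.4% of 84, were near that share, although 40.5% of members fell against 13.7% of all genes. In CFU-E-like cells 56 fell and 4 rose in WT and 44 fell and 3 rose in Tet2-KO mice (19.6% and 20.2% of all genes passed).

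**Figure D2:**
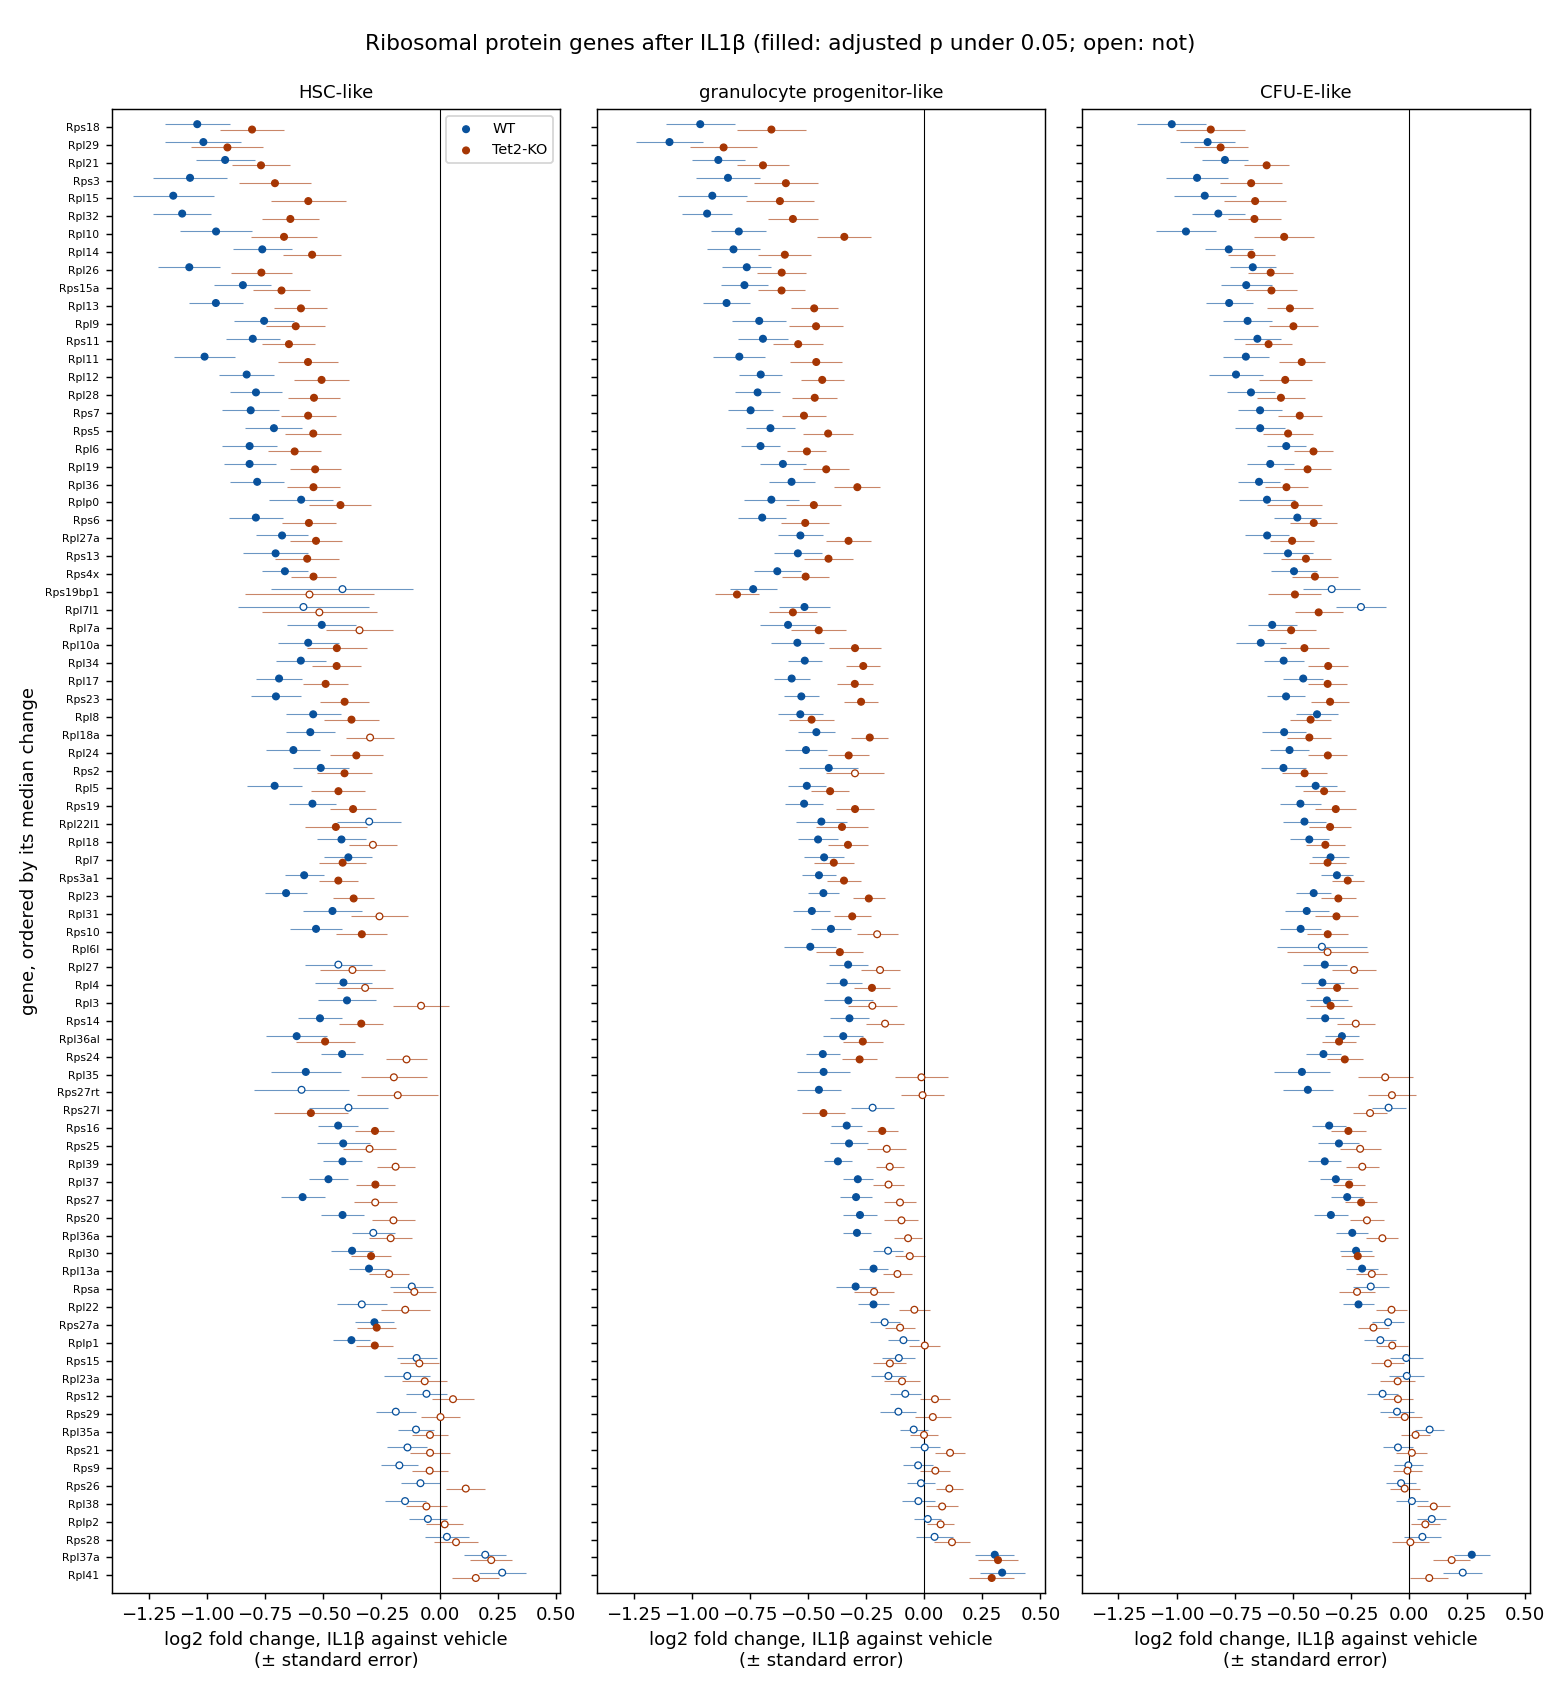
Log2 fold change after IL1β (horizontal axis, bars are standard errors) of the tested ribosomal protein genes reported here, in WT (blue) and Tet2-KO mice (brown), in 3 panels for HSC-like, granulocyte progenitor-like and CFU-E-like cells; filled points passed an adjusted p of 0.05. Most points lie left of 0 in every panel, and Rpl37a and Rpl41 lie to the right of it. Of the 83 members tested in all 6 comparisons, not all of them drawn, 39 fell in all 6, against 1.91% of 6296 genes. The 6 comparisons share mice and libraries.

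Large-subunit genes with the widest falls in WT HSC-like cells were Rpl15, Rpl32 and Rpl26. Rpl15 stood at 859, 820, 694 and 680 CPM (scaled by TMM, a trimmed-mean factor per mouse) in WT vehicle mice and at 409, 357, 305 and 259 CPM in WT IL1β mice. All 4 IL1β mice were below all vehicle mice, and the log2 fold change was -1.15 ± 0.18 (SE, adjusted p = 6.1e-05). In Tet2-KO mice Rpl15 went from 578, 625, 799 and 840 CPM to 469, 356, 563 and 546 CPM, again without overlap, with a log2 fold change of -0.56 ± 0.16 (adjusted p = 0.022). Rpl32 went from 7342, 7625, 5996 and 6120 CPM to 3429, 3603, 2558 and 2970 CPM in WT mice (log2 fold change -1.11 ± 0.13, adjusted p = 3.9e-06). Rpl26, whose protein sits by the exit of the peptide tunnel, went from 4330 to 5514 CPM over the WT vehicle mice to 1886 to 2700 CPM over the WT IL1β mice (log2 fold change -1.08 ± 0.13, adjusted p = 6.6e-06).

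In Tet2-KO HSC-like cells the widest falls were those of Rpl29, Rps18 and Rpl21. Rpl29, a large-subunit protein that mice can live without, stood at 789, 977, 1279 and 1399 CPM with vehicle and 469, 580, 647 and 647 CPM with IL1β (log2 fold change -0.91 ± 0.16, adjusted p = 0.00033). Rps18, in the head of the small subunit, stood at 3774, 3760, 5519 and 5209 CPM with vehicle and 2378, 2196, 2798 and 3073 CPM with IL1β (log2 fold change -0.81 ± 0.14, adjusted p = 0.00032). Rpl21 went from 2791, 2650, 4189 and 4132 CPM to 1877, 1979, 2085 and 2149 CPM (log2 fold change -0.77 ± 0.12, adjusted p = 0.00025). In all 3 genes the groups did not overlap, and Tet2-KO vehicle mice 1 and 2, which shared a pool, were below mice 3 and 4.

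**Figure D3:**
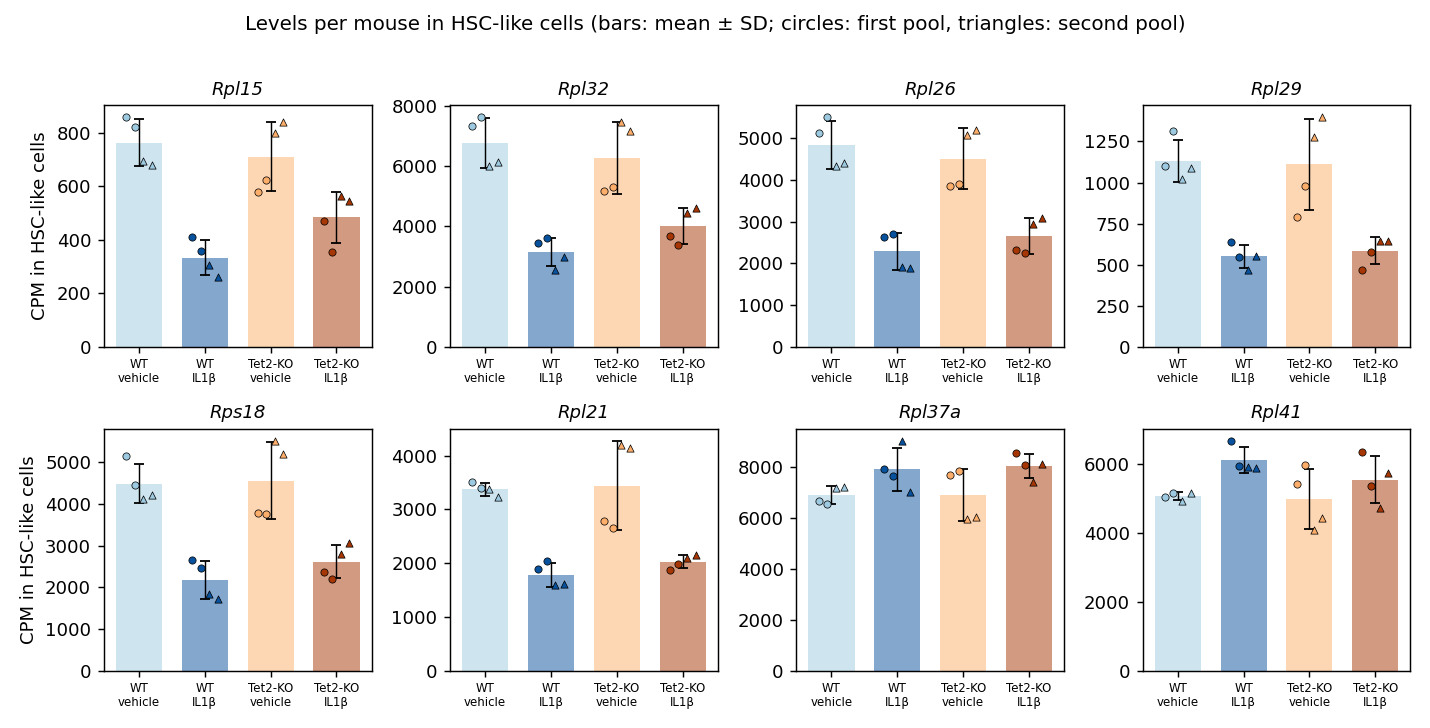
TMM-scaled CPM in HSC-like cells (vertical axes from 0, one scale per gene) of 8 ribosomal protein genes in each mouse of the 4 groups, with bars for the mean and whiskers for the SD of 4 mice; circles and triangles are the 2 pools. Rpl15, Rpl32, Rpl26, Rpl29, Rps18 and Rpl21 are lower in IL1β mice of both genotypes without overlap, whereas the means of Rpl37a and Rpl41 are higher with IL1β.

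Rpl29, Rps18, Rpl21 and Rpl32 were again among the leaders in other cell types, joined by Rpl10, Rps3 and Rps19bp1. In granulocyte progenitor-like cells of WT mice Rpl29 fell from 1481, 1374, 1283 and 1270 CPM to 786, 727, 507 and 506 CPM (log2 fold change -1.10 ± 0.14, adjusted p = 8.0e-05), followed by Rps18 (-0.96 ± 0.15) and Rpl32 (-0.93 ± 0.11). In Tet2-KO mice Rpl29 (-0.86 ± 0.14) and Rpl21 (-0.69 ± 0.11) were joined by Rps19bp1, which went from 79, 84, 79 and 92 CPM to 43, 46, 50 and 51 CPM (log2 fold change -0.81 ± 0.10, adjusted p = 7.5e-06). In CFU-E-like cells of WT mice the leaders were Rps18 (-1.02 ± 0.15), Rpl10 (-0.96 ± 0.13), a late-joining large-subunit protein, and Rps3 (-0.91 ± 0.13), which lines the mRNA entry channel. Rpl10 stood there at 1032, 900, 829 and 853 CPM with vehicle and at 597, 513, 393 and 312 CPM with IL1β. In Tet2-KO CFU-E-like cells Rps18 (-0.85 ± 0.15), Rpl29 (-0.81 ± 0.12) and Rps3 (-0.68 ± 0.13) fell most.

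With mice as replicates and TMM factors, only 2 members rose. Both are large-subunit proteins with short coding sequences (276 bases for Rpl37a and 138 bases for Rpl41 in the longest annotated form). In granulocyte progenitor-like cells Rpl37a, a zinc-binding protein, stood at 6601, 7365, 7457 and 7312 CPM in WT vehicle mice and at 8423, 8434, 9408 and 9196 CPM in WT IL1β mice (log2 fold change 0.30 ± 0.08, adjusted p = 0.011). In Tet2-KO mice it went from 8228, 8203, 6831 and 6224 CPM to 9718, 9513, 8651 and 8858 CPM (0.32 ± 0.08, adjusted p = 0.0056). Rpl41, a very short peptide at the bridge between the subunits, went from 6140, 6158, 6702 and 6784 CPM to 8916, 8620, 8131 and 6861 CPM in WT mice (0.34 ± 0.10, adjusted p = 0.014) and rose by 0.29 ± 0.10 in Tet2-KO mice (adjusted p = 0.022). In all 4 of these comparisons the lowest IL1β mouse was above the highest vehicle mouse, by a narrow gap for Rpl41 (6861 against 6784 CPM in WT and 7768 against 7573 CPM in Tet2-KO mice). Rpl37a also rose in CFU-E-like cells of WT mice (0.27 ± 0.08, adjusted p = 0.020). In HSC-like cells its changes of 0.20 ± 0.09 and 0.22 ± 0.09 did not pass (adjusted p = 0.21 and 0.12). With pools as replicates 0% of members rose in WT and Tet2-KO granulocyte progenitor-like cells, where 2.36% and 8.05% of all genes rose. In WT CFU-E-like cells it was 0% of members and 4.51% of all genes. Rpl37a also differed between the pools of Tet2-KO vehicle mice (8228 and 8203 against 6831 and 6224 CPM in granulocyte progenitor-like cells).

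Across the 6 comparisons, which share mice and libraries between cell types, 83 members were tested in all 6. Of these, 39 fell in all 6, 70 fell in at least 1, 2 rose and 11 passed in none. Of all 6296 genes tested in all 6, 1.91% fell in all 6, 30.8% fell in at least 1, 31.6% rose in at least 1 and 38.2% passed in none. Rpl6l, not tested in HSC-like cells, fell in 2 of the other 4. The 11 were Rpl23a, Rpl35a, Rpl38, Rplp2, Rps9, Rps12, Rps15, Rps21, Rps26, Rps28 and Rps29. The order of the members by their change was alike in the 2 genotypes, which share no mouse and no library: Spearman's rho over members was 0.88 in HSC-like (83 genes), 0.92 in granulocyte progenitor-like and 0.93 in CFU-E-like cells (84 genes each). Genes with a longer coding sequence had lower changes, with a rho of -0.38 and -0.42 in HSC-like cells and -0.43 to -0.55 in the other cell types. These are descriptions over genes read in the same libraries, and genes are not replicates.

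Pools of 1 group, which differed in no treatment, differed along a similar order of genes. In each of the 4 groups the pool with the lower median was compared with the other pool, gene by gene, on the log2(CPM + 1) scale. In granulocyte progenitor-like cells the median difference was -0.08 in WT vehicle, -0.22 in WT IL1β, -0.19 in Tet2-KO vehicle and -0.11 in Tet2-KO IL1β mice, the sign being fixed by the choice of the lower pool. Spearman's rho between this difference and the IL1β change in the other genotype, which used none of these libraries, was 0.58, 0.63, 0.79 and 0.67 over 84 genes. Over the 3 cell types and 4 groups rho ran from 0.49 to 0.79. The choice of the lower pool also set the sign of rho. The median IL1β changes in granulocyte progenitor-like cells, -0.45 and -0.29, were wider than each of the 4 pool medians. The part of library differences in the IL1β changes was not tested.

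**Figure D4:**
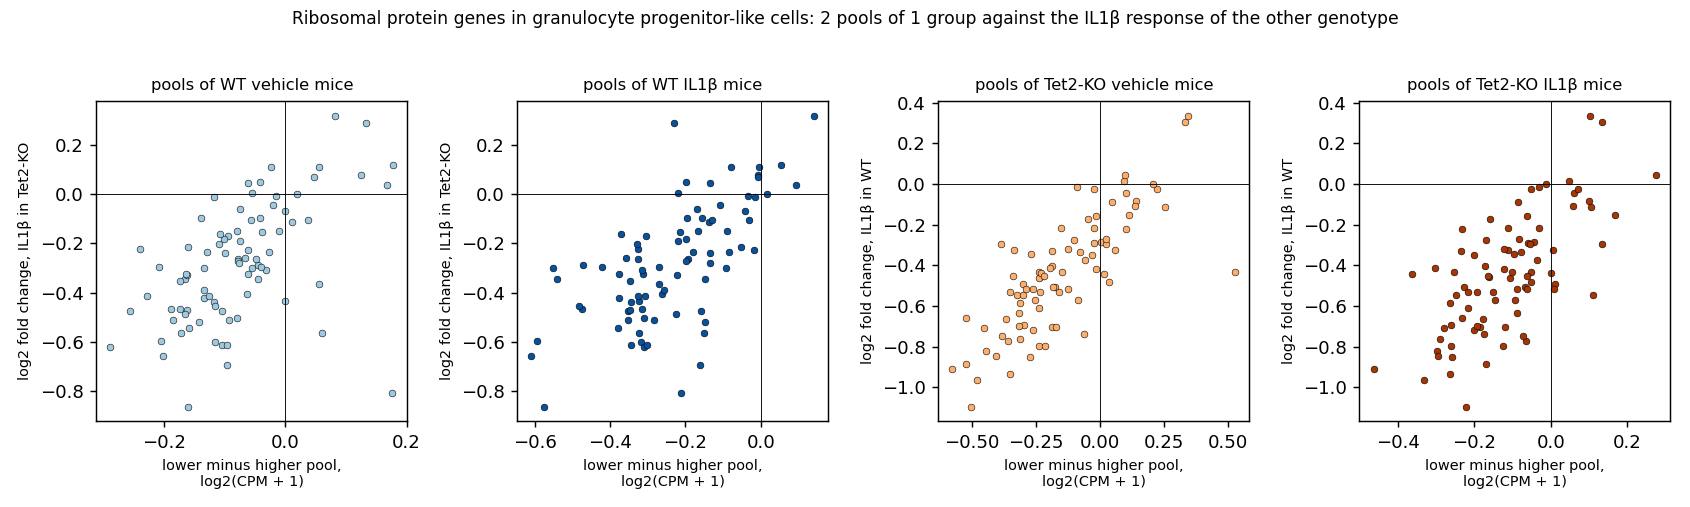
Each point is a ribosomal protein gene in granulocyte progenitor-like cells, in 4 panels for the 4 groups. The horizontal axis is the lower minus the higher pool of that group (log2(CPM + 1)), and the vertical axis is the log2 fold change after IL1β in the other genotype. Points run from lower left to upper right in every panel, with a Spearman's rho of 0.58 to 0.79, although no treatment separated the pools. The choice of the lower pool sets the sign of the pool difference and of rho.

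Members fixed for their roles differed in how far they moved. Of the stalk proteins, which recruit translation factors, Rplp0 fell in all 6 comparisons (log2 fold change -0.43 ± 0.13 to -0.66 ± 0.12), Rplp1 passed in HSC-like cells only (-0.38 ± 0.08 in WT, adjusted p = 0.0027, and -0.28 ± 0.08 in Tet2-KO mice, adjusted p = 0.022), and Rplp2 passed in none, at -0.05 to 0.10. The difference between cell types was not tested. Rpl5 and Rpl11, which form the 5S particle, fell in all 6 comparisons. Rpl11 went from 3047, 3423, 2557 and 2655 CPM to 1683, 1641, 1181 and 1249 CPM in WT HSC-like cells (log2 fold change -1.01 ± 0.13, adjusted p = 1.3e-05), while Rpl5 changed by -0.71 ± 0.12 (adjusted p = 0.00024). Rps6, the target of the S6 kinases, fell in all 6, from -0.79 ± 0.12 in WT HSC-like cells to -0.41 ± 0.10 in Tet2-KO CFU-E-like cells.

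Genes mutated in Diamond-Blackfan anaemia split into those that fell and those that did not pass. Rps19 fell in all 6 comparisons, and in CFU-E-like cells of WT mice it went from 5478, 5048, 5532 and 5145 CPM to 4350, 4369, 3229 and 3378 CPM (log2 fold change -0.47 ± 0.09, adjusted p = 0.00091). Rps7 fell in all 6, by 0.81 in WT and 0.57 in Tet2-KO HSC-like cells on the log2 scale. Rps24 fell in all but Tet2-KO HSC-like cells (-0.14 ± 0.09 there), and Rps10 fell in all but Tet2-KO granulocyte progenitor-like cells (-0.20 ± 0.09, adjusted p = 0.071). Rps26 and Rpl35a passed in none. Rps26 stood at 4922, 4489, 4852 and 4767 CPM in WT vehicle and 4529, 4674, 4952 and 3818 CPM in WT IL1β HSC-like cells, with overlapping mice (-0.08 ± 0.09, adjusted p = 0.64). Rpsa, which is also a laminin receptor, passed only in WT granulocyte progenitor-like cells (-0.30 ± 0.09, adjusted p = 0.015).

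Among the most abundant members in HSC-like cells by UMIs were Rpl37a (43504), Rps12 (40312), Rplp1 (38688) and Rps20 (36286), and 25 members made up 50% of the members' UMIs there. Rps20 fell in WT (-0.42 ± 0.09, adjusted p = 0.0044), and in Tet2-KO mice it stood at -0.20 ± 0.09 (adjusted p = 0.17). Rps12 stood at -0.06 ± 0.09 and 0.06 ± 0.09, neither of which passed.

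Genes outside the rule that also carry TOP mRNAs (19 genes, elongation and initiation factors among them) moved in both directions, and their difference from the members was not tested. In HSC-like cells 8 fell and 1 rose in WT and 5 fell and 1 rose in Tet2-KO mice (medians -0.19 and -0.18), where 6.67% and 10.2% of all genes passed. In granulocyte progenitor-like cells 10 fell and 2 rose, and 9 fell and 3 rose (medians -0.27 and -0.21, 29.4% and 40.0% of all genes passed). In CFU-E-like cells 10 fell and 1 rose, and 9 fell and 1 rose (medians -0.27 and -0.25, 15.1% and 15.5% of all genes passed). Eef1d, an exchange factor for elongation factor 1, fell in WT HSC-like cells (adjusted p = 0.00044) and changed by -0.81 ± 0.16 in Tet2-KO HSC-like cells (adjusted p = 0.0015). Naca, which binds nascent chains at the ribosome, changed by -0.86 ± 0.15 and -0.70 ± 0.14 in the same cells. Eef1a1, the most used elongation factor, passed in none, at -0.19 to -0.04, and Pabpc1, the poly(A)-binding protein, rose in both HSC-like comparisons (0.43 ± 0.12 and 0.37 ± 0.11). Fau fell in all 6 comparisons (-0.21 ± 0.08 to -0.63 ± 0.10).

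Members were counted by whether a tract lay at the annotated start. In WT HSC-like cells 9 of 14 members with a tract fell (median -0.59) and 34 of 49 with a promoter but no tract there (median -0.51). In Tet2-KO HSC-like cells the medians stood the other way round, at -0.31 and -0.41. Among granulocyte progenitor-like cells, 10 of 14 members with a tract at the start and 43 of 49 without one there passed in WT mice, where 29.4% of all genes passed. In Tet2-KO mice 6 of 14 (median -0.15) and 35 of 49 (median -0.30) passed, and the 42.9% of those with a tract was near the 40.0% of all genes. The share that passed was lower with a tract at the start in all 6 comparisons, which share mice and libraries, and this difference was not tested. Members without a tract at the start include some with a tract within 5 bases of it, such as Rps24 at 1 base before. The counts therefore do not compare members with and without a tract. Large-subunit and small-subunit members both fell, 38 of 49 and 23 of 34 in WT HSC-like cells (medians -0.58 and -0.47) and 30 of 49 and 19 of 34 in Tet2-KO mice (medians -0.42 and -0.33), where 6.67% and 10.2% of all genes passed.

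In the edgeR fits over all mice with the filter on low counts, no ribosomal protein gene passed between Tet2-KO and WT mice. With vehicle, 0 members passed in HSC-like (0.0% of all genes passed), granulocyte progenitor-like (0.047%) and CFU-E-like cells (0.054%) by edgeR and by DESeq2. By edgeR, 0, 0 and 1 (Rpl7l1) had an unadjusted p under 0.05, against 5.18%, 4.98% and 3.39% of all genes. With IL1β, 0 members passed in the 3 cell types by edgeR (0.0%, 0.235% and 0.0432% of all genes passed), and 23, 35 and 5 had an unadjusted p under 0.05, against 6.00%, 9.79% and 4.72% of all genes. The 23 and 35 were 27.7% and 41.7% of members, and the 5 in CFU-E-like cells, 5.95% of 84, were near the 4.72%. With pools as replicates these shares of members were 1.19%, 3.49% and 1.18%, below the 5.75%, 5.48% and 4.52% of all genes. With the stricter HSC-like gate the share was 2.44% of members and 5.03% of all genes. DESeq2 called 2 in granulocyte progenitor-like cells, Rpl39 and Rpl36a (2.38% of members, against 0.526% of all genes). The median difference with IL1β, Tet2-KO against WT, was 0.15, 0.16 and 0.10 on the log2 scale, with 74 of 83, 83 of 84 and 73 of 84 members above 0, and with vehicle it was -0.03, 0.01 and 0.01. The median with IL1β rested on single pools. It was lowest without the pool of WT IL1β mice 3 and 4, at 0.04, 0.05 and -0.04, and highest without that of WT IL1β mice 1 and 2, at 0.29, 0.30 and 0.24, and with the stricter HSC-like gate it was 0.06.

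By share of UMIs, Tet2-KO mice with IL1β were above WT mice with IL1β in 11 of 13 gates, which share mice and libraries. The groups did not overlap in granulocyte progenitor-like (31.0% against 29.3%), monocyte-like (29.1% against 26.7%) and monocyte-primed progenitor-like cells (30.6% against 28.4%). With vehicle no gate was without overlap. Granulocyte progenitor-like cells of Tet2-KO IL1β mice were also deeper, with a median of 7984 to 10112 UMIs per cell against 5371 to 7256 in WT IL1β mice, and the part of depth in the difference was not tested. The response to IL1β was not shown to differ between genotypes: the interaction passed for 0 members in each cell type by both tools (0.0% of all genes), with 7, 11 and 3 members at an unadjusted p under 0.05 (8.43%, 13.1% and 3.57%, against 3.49%, 5.69% and 3.1% of all genes). With pools as replicates these shares of members were 0%, 1.16% and 0%, against 3.47%, 2.6% and 2.16% of all genes. The median of the interaction over members was 0.16, 0.16 and 0.09, where a value above 0 stands for a smaller fall in Tet2-KO mice. Without the pool of WT IL1β mice 3 and 4 it was 0.05, 0.05 and -0.06, without that of WT IL1β mice 1 and 2 it was 0.32, 0.27 and 0.24, and with the stricter HSC-like gate it was 0.03. In CFU-E-like cells the sign also turned without a pool of Tet2-KO mice (vehicle mice 1 and 2 or IL1β mice 3 and 4). Rpl32 in HSC-like cells differed by 0.47 with an adjusted p of 1.0.

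Between cell types of the same mice, ribosomal protein genes were higher in granulocyte progenitor-like than in HSC-like cells. With the mouse as a block, 83 of 84 members were higher and 0 lower (median log2 fold change 0.50 against 0.03 over all genes, 69.2% of which passed), Rps14 being the member that did not pass. With total UMIs as the scale, at which the median of all genes stood at -0.27, 60 were higher and 8 lower, where 20.3% of all genes were higher and 51.2% lower. The median HSC-like cell held 2846 UMIs and the median granulocyte progenitor-like cell 7331, and the part of depth was not tested. Rpl36al differed most, at 1895 ± 249 CPM against 846 ± 175 CPM (SD, n = 16 mice), a log2 fold change of 1.18 ± 0.04 (adjusted p = 2.1e-25), and it was higher in 16 of 16 mice. Rps27l (1.06 ± 0.05) and Rpl10 (0.89 ± 0.04) followed, each higher in 16 of 16 mice. In CFU-E-like against HSC-like cells 55 of 84 members were higher and 9 lower (median 0.17 against 0.01 over all genes, 77.9% of which passed). The 76.2% of members called was no higher than that share, so that the number called is not a result about the members, and 65.5% of members were higher against 39.0% of all genes. The split moved with the settings. With a stricter gate 38 of 83 were higher and 25 lower (median 0.05), near the 35.0% and 33.9% of all genes. With pools as replicates 80 were higher and 1 lower (median 0.44, 40.7% and 39.2% of all genes), and without the filter on low counts 82 of 86 were higher and 1 lower (median 0.54, 27.3% and 29.7%).

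Single members differed in both directions between CFU-E-like and HSC-like cells. Rps27l, the p53-responsive sister of Rps27, stood at 1062 ± 74.6 CPM against 484 ± 133 CPM in HSC-like cells (log2 fold change 1.20 ± 0.06, adjusted p = 3.9e-20), and Rps2, which lines the mRNA entry channel, at 6098 ± 1269 CPM against 3358 ± 653 CPM (0.86 ± 0.03, adjusted p = 2.2e-25), both higher in 16 of 16 mice. Rps19bp1 was higher by 0.88 ± 0.09. Rpl39, a tunnel protein, was lower in 16 of 16 mice (4147 ± 487 CPM against 5300 ± 649 CPM, log2 fold change -0.36 ± 0.02, adjusted p = 3.0e-15). Rps27rt (-0.24 ± 0.07) and Rps27 (-0.22 ± 0.03) were lower too, but the direction of all 3 turned without the filter on low counts.

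Of the 5 members that varied most between cell types, 4 were sister genes. The ranking took only the 81 members with at least 100 UMIs in every gate. Over the 13 gates, the share of the members' UMIs varied most for Rpl36al (SD of its log2 share 0.478), Rps27l (0.426), Rpl22l1 (0.374), Rps2 (0.366) and Rps27rt (0.311), against 0.092 for Rps20. In plasma-cell-like cells Rpl36al stood at 3035 ± 329 CPM (of all UMIs, SD over 15 mice) and its sister Rpl36a at 1799 ± 232 CPM, whereas in HSC-like cells Rpl36al stood at 942 ± 182 CPM and Rpl36a at 2884 ± 182 CPM. Rpl22l1 ran from 1093 ± 129 CPM in granulocyte progenitor-like and 1019 ± 150 CPM in HSC-like cells down to 319 ± 104 CPM in plasma-cell-like cells, where Rpl22 stood at 1939 ± 256 CPM.

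Rps27l was highest in CFU-E-like (1048 ± 52.1 CPM) and erythroblast-like cells (1025 ± 57.6 CPM), neighbours that did not differ beyond their spread, and lowest in natural killer or T cell-like (372 ± 110 CPM) and neutrophil-like cells (375 ± 83.0 CPM). Rps27 went the other way in natural killer or T cell-like cells, where it was highest (3940 ± 888 CPM against 2536 ± 349 CPM in HSC-like cells). Rpl7l1, which acts in ribosome assembly in the nucleolus, stayed between 38.8 ± 21.0 CPM (plasma-cell-like) and 110 ± 14.7 CPM (CFU-E-like). Rpl39l and Rpl3l, the testis and muscle forms, had 222 and 165 UMIs over all gates. Under IL1β, Rpl36al fell in all 6 comparisons (-0.26 ± 0.09 to -0.61 ± 0.13), and Rpl22l1 in 5, the exception being WT HSC-like cells (-0.30 ± 0.14, adjusted p = 0.20). Each count comes from the 3′ end of a transcript, so that CPM does not scale with transcript length.

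**Figure D5:**
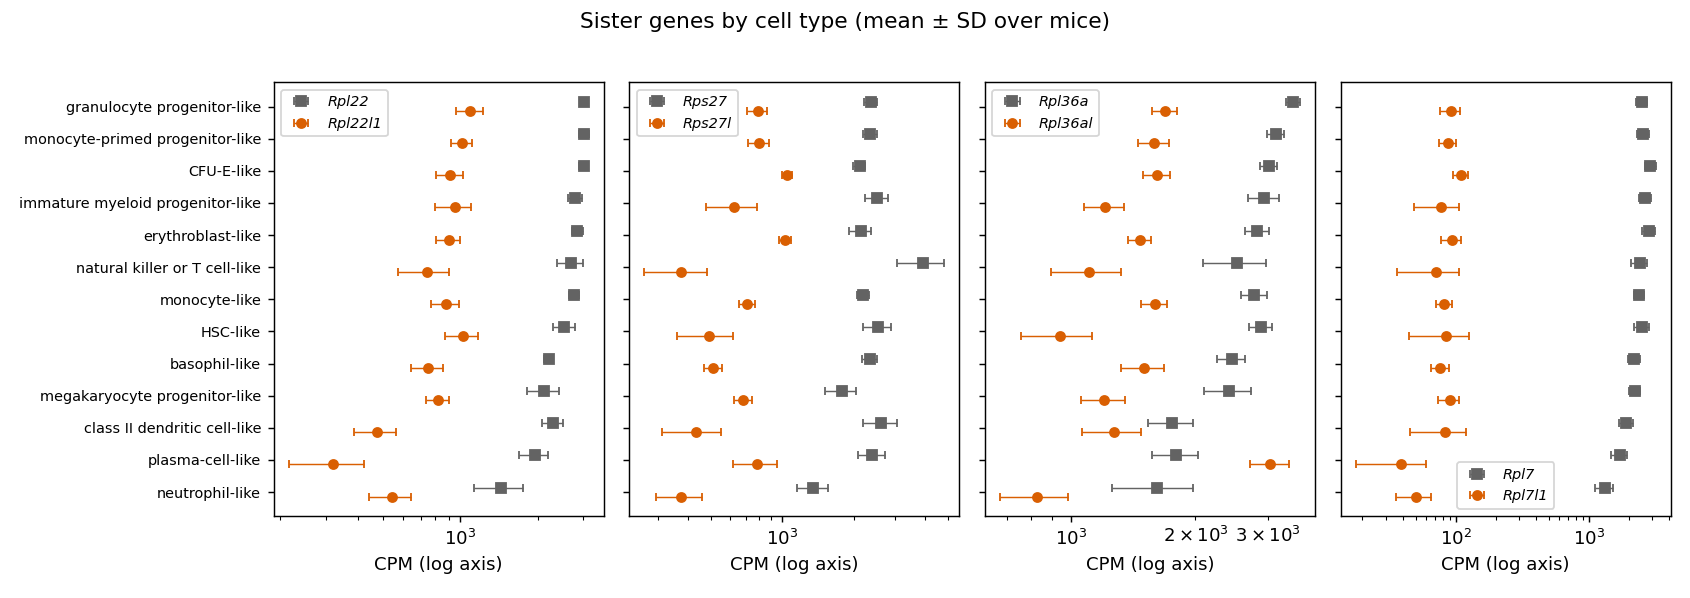
CPM of all UMIs (horizontal log axis, points are means and bars the SD over mice) of 4 pairs of sister genes in 13 marker-gated cell types. Grey squares are Rpl22, Rps27, Rpl36a and Rpl7, orange circles are Rpl22l1, Rps27l, Rpl36al and Rpl7l1; Rpl36al exceeds Rpl36a in plasma-cell-like cells only, at 3035 against 1799 CPM.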

How the data were processed

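The authors aligned and counted the reads with Cell Ranger 3.1.0 (per the file headers and the labels) against mm10 and deposited UMI counts per gene and barcode together with hashtag counts. Cell Ranger keeps reads that map to 1 gene, so that members with near copies, among them Rps27 and Rps27rt, may be undercounted. Seurat 3.2.3 is named in the submitters' processing notes.

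Here, barcodes with at least 750 genes and at most 10% mitochondrial UMIs were kept (94917 cells). HTODemux (Seurat 5.3.0) gave 57896 cells to 1 mouse. It marked 3938 cells (4.15%) as doublets and 33083 (34.9%) as negative, all left out. Cells were gated on marker genes, with marker lists and gene lists chosen with earlier results of these data known and gate thresholds chosen after marker detection was seen. The rule for members was likewise proposed with earlier results known. Counts were summed per mouse and gate for mice with at least 10 cells. HSC-like sums held 49314 to 736089 UMIs per mouse, and intervals of counting error are not given since mice are the replicates. Members were tested in edgeR 4.0.16 (R 4.3.3): TMM factors, filterByExpr, quasi-likelihood test, Benjamini-Hochberg adjustment over all genes at 0.05, with all 4 groups in 1 fit. The cell types were compared in a fit with the mouse as a block. Replicates are mice, but pools are libraries, and p-values over mice treat mice of 1 pool as independent. RLE factors, total UMIs, scaling on other genes, no filter, DESeq2 1.42.0, a stricter gate, a replicate block, pools as replicates and leaving out mice or, added after the data were seen, pools were tried. Shares are descriptions with no test.

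Genes named are, in each comparison, up to 3 members in each direction with the largest change among those called, the sister genes, the 5 with most UMIs in HSC-like cells, the 5 that varied most over gates, and members fixed by role. Names outside this rule were chosen after their values were seen. Gates with under 13 mice were not described. The fits were tested on simulated data. Promoters come from RefSeq. A few genes that the rule would name are not reported here, though they stay in the counts.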

Additional observations from a re-analysis of the deposited data

Results flagged for a closer look

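In 2 of 44 groups of 4 mice tested, 1 mouse stood far from the other 3 in its share of UMIs on ribosomal protein genes; chance alone flags about 1 group in 20. In neutrophil-like cells, Tet2-KO IL1β mouse 2 had a share of 11.8% (315 cells), against 16.6% to 17.2% in the other mice. In plasma-cell-like cells, Tet2-KO vehicle mouse 2 had a share of 22.7% (20 cells), against 25.9% to 26.3% in the others.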

How the results depend on the processing

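Counts of members called, out of 83 in HSC-like and 84 in the other cells, were within 1.5 times of those reported under RLE factors, total UMIs, scaling on other genes and the replicate block. With the block they were 61 and 49 (HSC-like, WT and Tet2-KO), 69 and 54 (granulocyte progenitor-like) and 65 and 58 (CFU-E-like). The shares of all genes that passed were then 6.5% and 10.9%, 28.6% and 40.4%, and 15.4% and 16.7%. Same-numbered mice did not deviate together, with a median correlation of -0.0043 to -0.022, so that the numbers pair no samples. With the mouse block left out of the comparisons of cell types, 81 and 58 members passed (96.4% and 69.0%, against 70.3% and 78.2% of all genes). The 58 in CFU-E-like against HSC-like cells were below the share of all genes and are not a result about the members. Pools as replicates gave 34 and 10, 28 and 12, and 1 (CFU-E-like, Tet2-KO), and the stricter gate 36 (HSC-like, WT), where the share differed by -4.45 points. For Tet2-KO against WT with IL1β in granulocyte progenitor-like cells, no filter called 1 (Rpl10) and DESeq2 2, where 0.401% and 0.526% of all genes passed. No filter called 1 in each genotype comparison of CFU-E-like cells (Rpl39l, at 32 UMIs), where 0.272% (vehicle) and 0.634% (IL1β) of all genes passed. The cause of these shifts was not tested. Without 1 mouse the IL1β counts ran from 46 to 61 (HSC-like, WT), 28 to 49 (HSC-like, Tet2-KO, 28 without vehicle mouse 3 and 32 without vehicle mouse 4 or IL1β mouse 2), 66 to 72, 45 to 57, 52 to 65 and 38 to 58. Without 1 pool they ran from 31 to 64, 0 to 50, 54 to 72, 22 to 63, 33 to 66 and 1 to 62, and the count for Tet2-KO against WT with IL1β in granulocyte progenitor-like cells from 0 to 5. The shares of all genes that passed in the fits without a mouse or a pool are not given here. These counts therefore show only how far the calls moved. The lowest WT counts came without WT IL1β mice 3 and 4, and the lowest Tet2-KO counts without Tet2-KO vehicle mice 3 and 4. Without Tet2-KO IL1β mice 1 and 2 the Tet2-KO counts were 12, 31 and 15, and without WT vehicle mice 1 and 2 the WT count in CFU-E-like cells was 40. The 5 members without WT IL1β mice 1 and 2 were Rpl10, Rpl11, Rpl13, Rpl36 and Rps25, and Rpl35 was the 1 without Tet2-KO vehicle mice 3 and 4. In CFU-E-like against HSC-like cells the direction turned without the filter for Rpl22l1 (0.28), Rpl39 (0.0205), Rps27 (0.15) and Rps27rt (0.14), and with pools as replicates for Rpl22l1 (0.22), Rps27 (0.055) and Rps27rt (0.060). With total UMIs it turned for Rps27 (-0.10) and Rps27rt (-0.15) in granulocyte progenitor-like against HSC-like cells and for Rps26 after IL1β in WT granulocyte progenitor-like cells (0.17). Over named genes and settings, 6332 of 6880 values kept direction and side of the threshold, 431 no longer passed, 107 newly passed and 10 turned. Depth limits HSC-like cells most, at 49314 UMIs in the shallowest mouse.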
